A study of Mus musculus with 2 samples.

Results

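The 39 genes described here encode extracellular matrix proteins, the enzymes that cut or cross-link them and the inhibitors of those enzymes. They were chosen by name, with earlier results of these data known, and all 39 were found among the 32285 genes of the count tables. Counts of members set beside shares of all genes are therefore not a blind comparison. The set holds 5 fibrillar collagens, 4 collagen IV chains, 3 collagen VI chains, 3 other collagens, 6 laminins and nidogens, 4 fibronectin and matricellular genes, 3 small proteoglycans, 3 elastic fiber and cross-linking genes, 3 tissue inhibitors of metalloproteinases (TIMPs) and 5 proteases.

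The study compared, by single-cell RNA sequencing on the 10x Genomics platform, 1 kidney made ischemic for 27 minutes on the left side and 1 opposite, uninjured kidney that served as the control. Both came from wildtype C57BL/6J males aged 19 weeks, and tissue was collected after 24 h of reperfusion. Neither kidney carried an engineered allele, and the labels do not say whether animals were pooled. Cells were freed by warm enzymatic digestion before loading, and no cell type was sorted.

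In the kidney, collagen IV, laminins and nidogens build the basement membranes beneath tubule cells, podocytes and capillaries. Fibrillar collagens, collagen VI, proteoglycans and elastic fibers fill the interstitium and vessel walls and are made mainly by fibroblasts and mural cells. Metalloproteinases and plasminogen activators break matrix down, and TIMPs block metalloproteinases.

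The files held 15110 control and 15257 ischemic barcodes with 142686238 and 142959737 unique molecular identifiers (UMIs), of which 12586 and 13116 cells passed the limits on genes, UMIs and mitochondrial UMIs. The libraries shared 88 barcodes, 58 of them among the kept cells. Clusters were named from marker genes that exclude the 39, as X-like populations: proximal tubule (PT), thin limb, thick ascending limb (TAL), distal convoluted and connecting tubule (DCT-CNT), collecting duct principal (CD-PC) and intercalated (IC) cells, podocytes, endothelial cells (EC), stromal cells, macrophages, neutrophils (PMN), T and NK cells, and B cells. A cluster of 10379 shallow cells and a cluster of 1640 cells stayed unnamed. The CD-PC-like cluster also held markers of other types. DCT-CNT markers summed there to 18380 CPM in control and 9179 CPM in ischemic cells, above its CD-PC markers at 6804 and 4335 CPM. IC markers summed there to 3018 and 1870 CPM. The 104 IC-like cells were led by Slc26a4, Lsamp and Slc4a9. At resolution 0.6 a further IC-like cluster of 187 cells, led by Aqp6, Atp6v1g3 and Kit, was split off. PMN-like cells numbered only 19 in the control library, so no ratio is given for them. PT markers were also detected in other populations. Their summed level in EC-like cells was 2736 CPM in control and 1070 CPM in ischemic cells, with 2069 and 957 CPM in macrophage-like cells. In PT-like cells themselves the same list was also lower, at 12101 and 6250 CPM. A lower sum elsewhere is therefore no measure of the amount of tubule RNA there.

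All levels below are counts per 1000000 (CPM) of the UMIs summed over a population in 1 library. With 1 library per condition there is no test. Genes with at least 50 UMIs over both libraries were compared, and "higher" or "lower" in the counts below means at least 2-fold. Intervals are exact 95% Poisson or conditional binomial intervals that cover counting error only, and cells of 1 kidney are not replicates. The ischemia and any other difference between the 2 libraries cannot be told apart.

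In stromal-like cells, where the most members could be compared among the 6 populations counted here, 8 of 37 were higher and 3 lower in the ischemic library. Counts are not ranked between populations, since the number compared differed. Over all 9461 genes compared there, 1.92% were higher and 2.52% lower. TAL-like cells had 7 of 17 higher and 1 lower, against 7.79% and 7.55% of all genes. In PT-like cells 5 of 20 were higher and 2 lower, against 6.85% and 3.85%. EC-like cells had 5 of 23 higher and 2 lower, against 1.93% and 3.33%. Among macrophage-like cells the counts were 2 higher and 3 lower of 15, against 5.62% and 4.9%. CD-PC-like cells had 3 higher and 3 lower of 17, against 5.81% and 4.52%. The median ratio of the compared members was 1.60 in TAL-like cells, where that of all genes was 1.07. In stromal-like cells these medians were 1.20 and 1.02, and in macrophage-like cells 0.809 and 1.08. They were 1.31 and 0.992 in EC-like, 1.19 and 1.08 in PT-like and 0.973 and 0.991 in CD-PC-like cells.

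**Figure D1:**
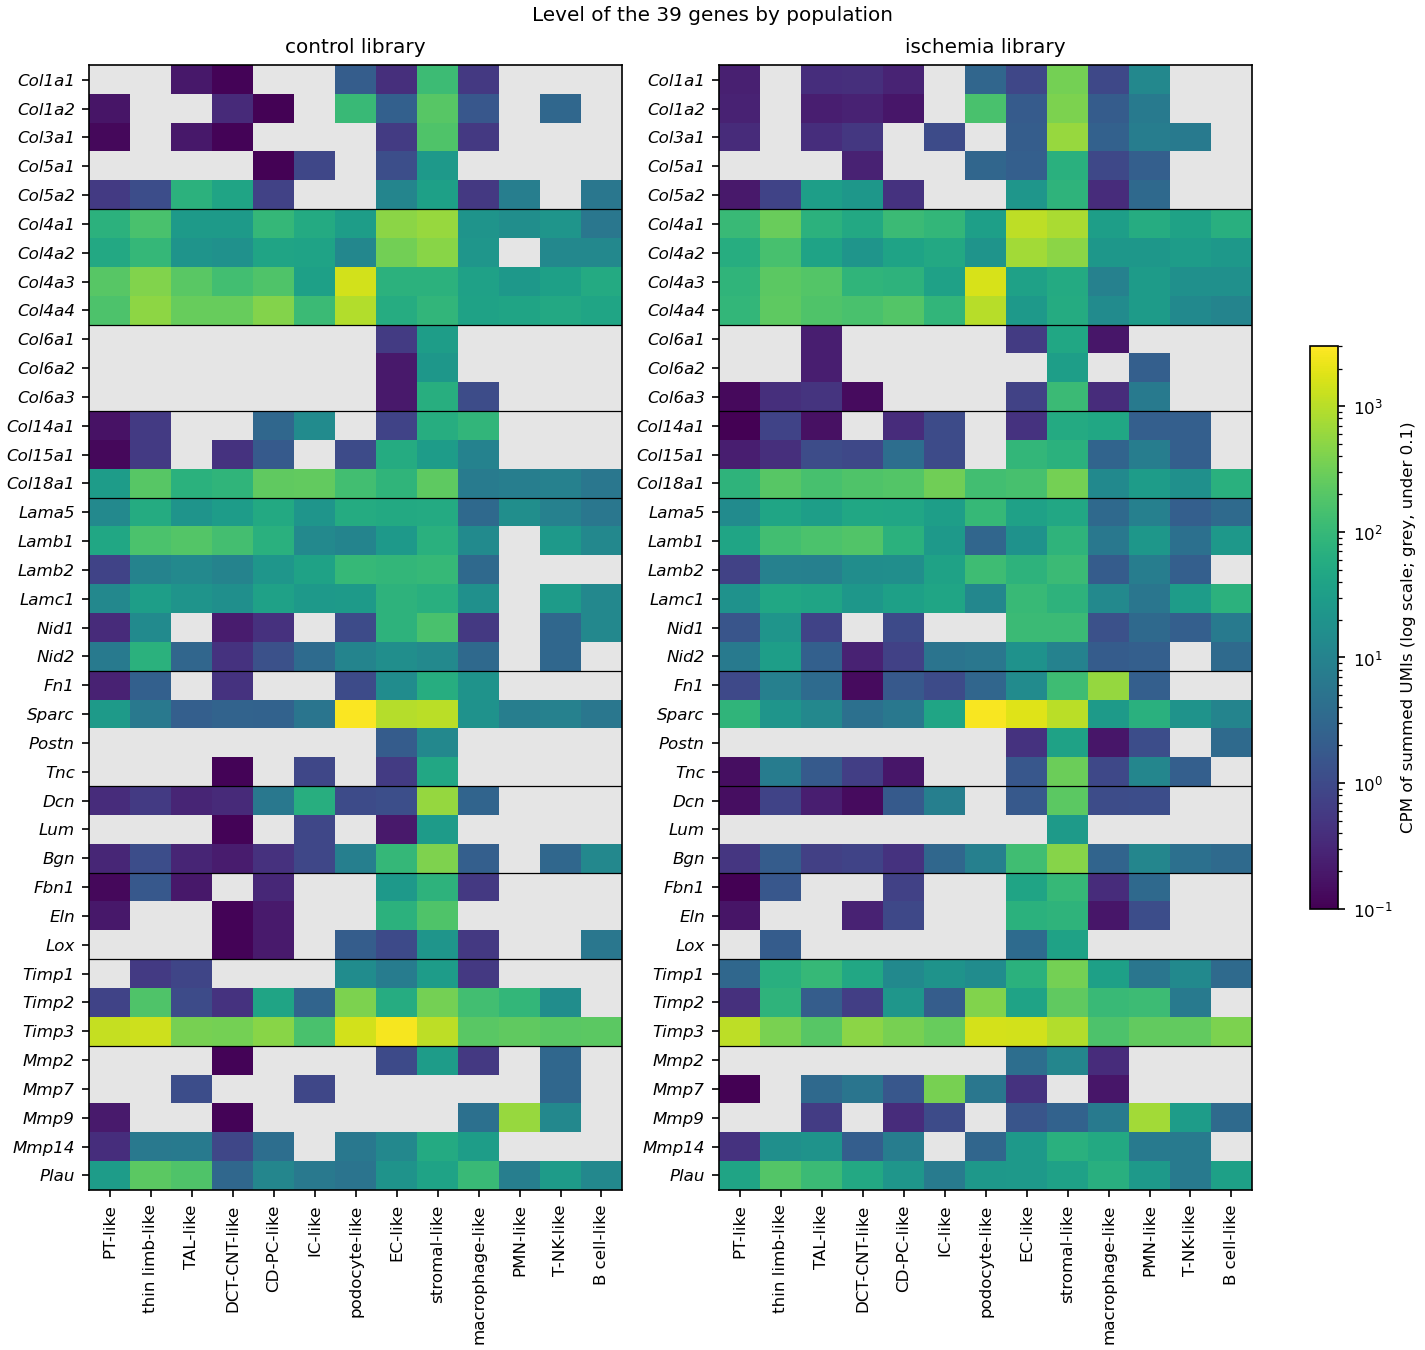
Level of each of the 39 genes (rows, grouped by role) in 13 populations (columns) of the control (left) and ischemic (right) library, as CPM of summed UMIs on a log colour scale with grey for values under 0.1. Fibrillar collagens and collagen VI fill the stromal-like column, while Timp1 is grey or dark in most control columns and lighter in the ischemic ones.

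**Figure D2:**
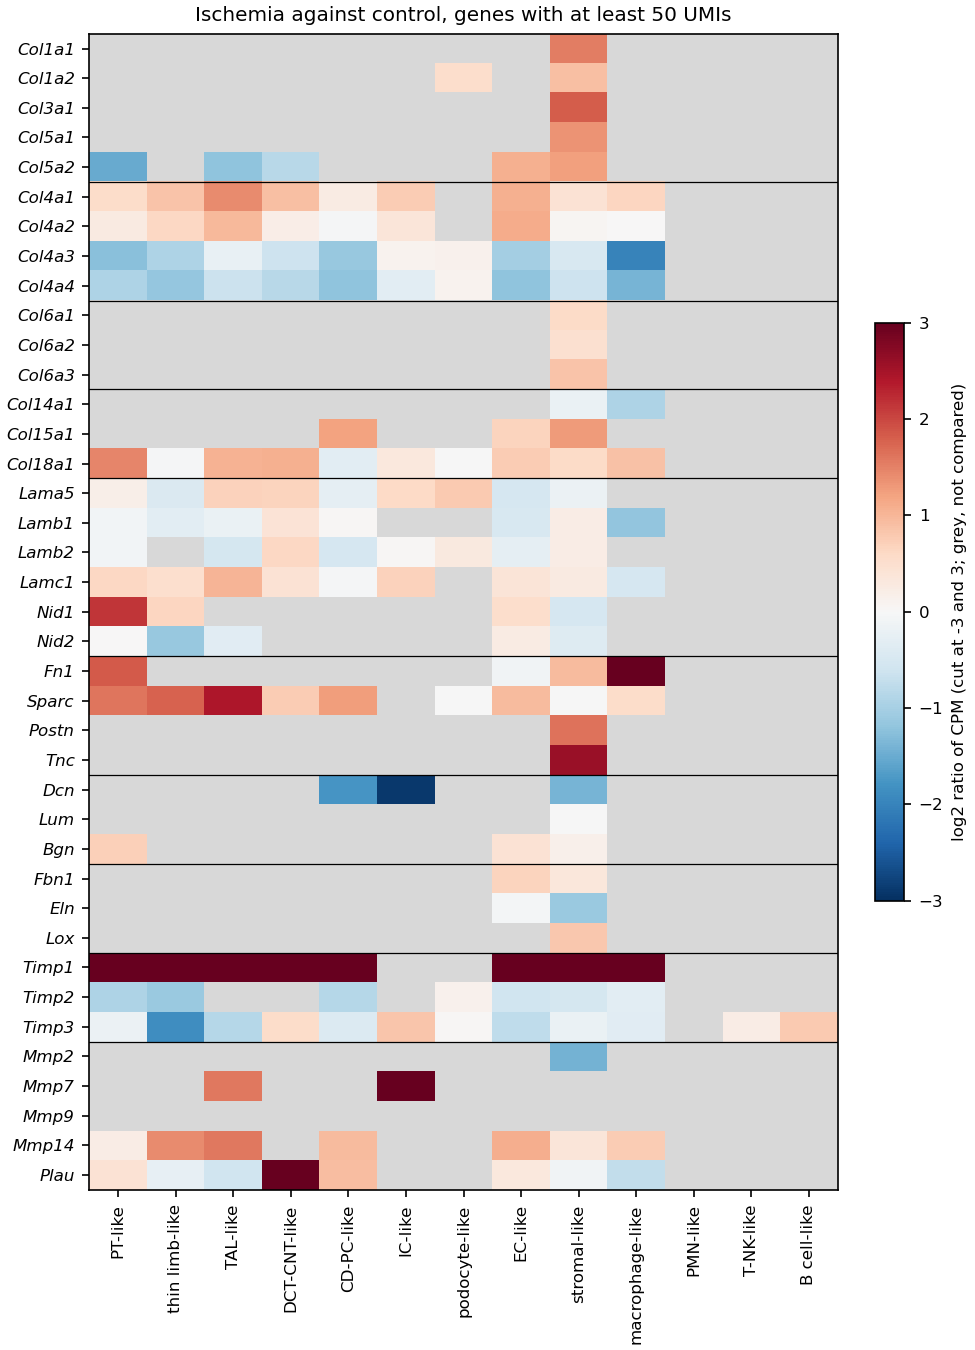
Ratio of ischemic to control CPM on a log2 colour scale that ends at 8-fold either way, for each gene (rows) and population (columns); grey marks genes under 50 UMIs and populations under 30 cells in either library. Timp1 is dark red in 8 populations, and Col4a3 and Col4a4 are blue in most tubule columns but near 0 in podocyte-like cells.

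Fibrillar collagens, the rope-forming proteins of scar and connective tissue, had their largest share of UMIs in stromal-like cells. These cells, 256 in the control and 310 in the ischemic library, held 41.2% of the fibrillar collagen UMIs of the control library (exact binomial interval 39.4% to 43.1%) and 76.6% of those of the ischemic library (75.4% to 77.7%). TAL-like cells held 27.6% and DCT-CNT-like cells 12.9% of those of the control library. Nearly all of these tubule UMIs were Col5a2, so the pooled shares depend on that gene. The 797 TAL-like UMIs included 2 of Col1a1, 0 of Col1a2 and 2 of Col3a1. Stromal-like cells held 92.3% of the Col1a1 UMIs in both libraries, and 74.6% (control) and 87.3% (ischemic) of those of Col1a2. Col3a1, the chain of type III collagen, had levels of 172 CPM (control) and 603 CPM (ischemic), a ratio of 3.50 (interval 3.12 to 3.93). Col1a1, a chain of type I collagen, was at 118 and 345 CPM, a ratio of 2.92 (2.54 to 3.37). Its partner chain Col1a2 was at 207 and 385 CPM and stayed inside 2-fold. Podocyte-like cells also held Col1a2, at 108 and 157 CPM, beside 2.11 and 3.01 CPM of Col1a1. Col5a1, which with Col5a2 makes the type V collagen that nucleates fibrils, was at 26.9 and 68.7 CPM. The ischemic counts rested on few cells, and 5 cells held 70.4% of the ischemic Col1a1 UMIs and 55.7% of those of Col3a1. When each cell counted equally, the Col1a1 ratio was 1.73. Over the alternatives the Col5a1 ratio of 2.56 went down to 1.87.

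Col5a2 went opposite ways by population. In stromal-like cells its levels were 35.3 CPM (control) and 82.4 CPM (ischemic), a ratio of 2.33 (1.79 to 3.07), and in EC-like cells at 10.8 and 22.8 CPM. In TAL-like cells, where it was highest in the control library, it was at 75.6 and 32.5 CPM, a ratio of 0.430 (0.381 to 0.485). PT-like cells had 42 and 14 UMIs, 0.586 and 0.206 CPM. The EC-like ratio of 2.11 was 1.17 when cells were gated on marker UMIs, and the PT-like ratio of 0.352 was then 0.797. The stromal-like ratio ranged from 1.72 to 2.73 over the alternatives. The other fibrillar collagens had their highest level in stromal-like cells in both libraries.

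The stromal-like cells split into sub-clusters, of which 1 with 63 control and 92 ischemic cells was fibroblast-like by its markers and led by Cxcl14, Csmd1 and C7. It held 34.9% of the fibrillar collagen UMIs of the control and 69.2% of those of the ischemic library. For Col1a1 alone these shares were 85.7% and 86.0%. Of 32 members with 50 UMIs in it, 12 were higher and 1 lower, beside 14.4% and 6.97% of the 2483 genes compared there, and 7 members fell under 50 UMIs. The 12 were Col1a1, Col3a1, Col5a1, Col5a2, Col4a1, Col4a2, Col6a3, Col15a1, Col18a1, Tnc, Timp1 and Mmp14. The median ratio of the 32 members was 1.37, where that of all genes compared there was 1.19. Col3a1 was at 1118 and 3379 CPM and Col1a1 at 780 and 1908 CPM. PT markers in these cells summed to 3436 CPM with 12 of 12 detected in the control library and to 865 CPM with 11 of 12 in the ischemic library. The sub-cluster's own 9 fibroblast markers, all detected in both, summed to 2389 and 1540 CPM. VSMC markers summed to 545 CPM with 7 of 8 detected and to 2201 CPM with 8 of 8. Peritubular EC markers summed to 903 CPM with 5 of 7 detected and to 2792 CPM with 6 of 7, and injured tubule markers to 46.8 CPM with 4 of 5 and to 276 CPM with 5 of 5. The other EC lists did not rise alike: the general EC list was at 442 and 465 CPM and glomerular EC markers at 348 and 422 CPM. Arterial EC markers were lower, at 1318 and 709 CPM. The PT, fibroblast, VSMC, peritubular EC, arterial EC and injured tubule lists differed between the libraries, as did the 12 higher members and Dcn. Their part was not tested.

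**Figure D3:**
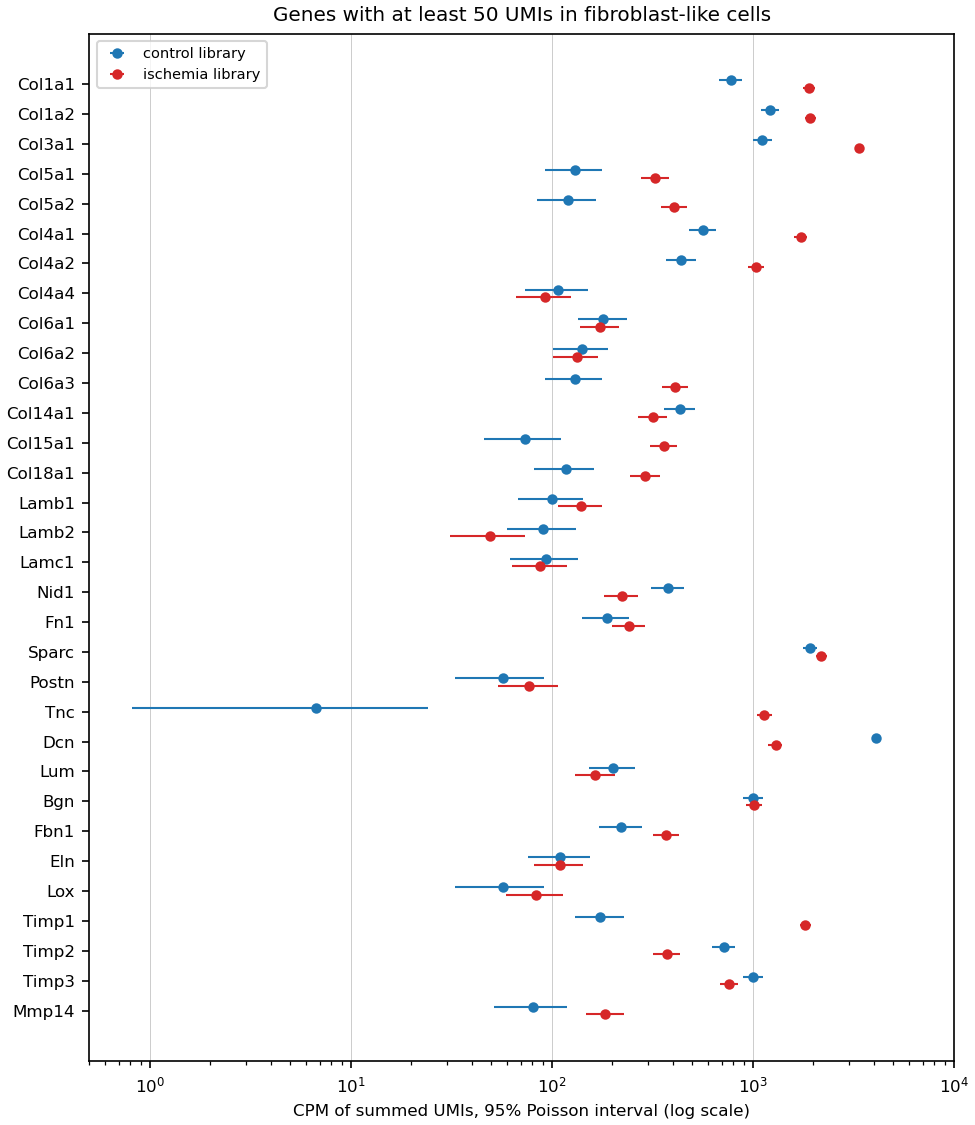
CPM (log axis) of the members with at least 50 UMIs in fibroblast-like cells of the control (blue) and ischemic (red) library, with exact 95% Poisson intervals as bars. Tnc has the widest gap, from 6.69 to 1141 CPM, and Dcn lies to the left in the ischemic library.

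A VSMC-like sub-cluster, with 69 cells in each library and led by Cnn1 and Myh11, the smooth muscle contractile genes, showed less. Col3a1 was at 41.9 and 98.4 CPM there and Col1a1 at 29.9 and 58.5 CPM. The remaining stromal sub-clusters stayed unnamed. That of 47 control and 79 ischemic cells scored highest for VSMC markers. Those of 52 and 44 cells and of 14 and 18 cells scored highest for TAL and thin limb markers. The last, of 11 and 8 cells, scored highest for EC markers and was led by endothelial genes. Its cells were deep, with a median of 37990 UMIs against 2623 in fibroblast-like cells, so they weigh more in summed levels. The part of these sub-clusters in the stromal-like levels was not tested.

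Collagen IV chains divided into pairs. Col4a1 and Col4a2, the chains found in nearly every basement membrane, lie head to head on chromosome 8 of GRCm38. Their annotations overlap at the starts, since Col4a2 starts at 11312805, inside Col4a1, which starts at 11312826 on the minus strand. The 20 bases between these starts are thus shared and not a gap. Col4a3 and Col4a4, which with a further chain form the network of the mature glomerular filter, lie head to head on chromosome 1. They do not overlap, with 71 bases between starts. In EC-like cells, 904 control and 1035 ischemic, Col4a1 was at 508 and 1069 CPM, a ratio of 2.10 (2.01 to 2.20) that went down to 1.95 over the alternatives. Col4a2 was there at 340 and 730 CPM, a ratio of 2.15 (2.03 to 2.27). Both were also higher in the EC sub-cluster with peritubular markers, where Col4a1 was at 650 and 1531 CPM and Col4a2 at 402 and 1011 CPM. In TAL-like cells Col4a1 was at 27.8 and 74.4 CPM, a ratio of 2.67, while Col4a2 was at 20.6 and 40.1 CPM, a ratio of 1.95. Stromal-like cells differed little, with Col4a1 at 605 and 817 CPM and Col4a2 at 474 and 495 CPM, though fibroblast-like cells had 565 and 1728 CPM of Col4a1.

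Col4a3 and Col4a4 were lower in the ischemic library in several tubule populations. In the 3915 control and 2785 ischemic PT-like cells Col4a3 was at 206 and 86.4 CPM, a ratio of 0.419 (0.407 to 0.432). Its partner Col4a4 was there at 171 and 90.6 CPM, a ratio of 0.529. CD-PC-like cells had 444 and 193 CPM of Col4a4 and 175 and 79.7 CPM of Col4a3. Thin limb-like cells had 528 and 236 CPM of Col4a4. TAL-like cells had 216 and 187 CPM of Col4a3, inside 2-fold, and IC-like cells 34.5 and 37.1 CPM. The PT-like direction of Col4a3 was shared by all 3 clusters named PT-like, with 232 and 103 CPM, 68.5 and 28.1 CPM, and 261 and 88.1 CPM. Without integration of the libraries the PT-like ratio of Col4a3 was 0.779, but it covered other cells. The clusters then named PT-like held 2143 and 586 control cells but only 433 and 112 ischemic cells. A cluster of 61 control and 1277 ischemic cells, led by Fgb and Havcr1, scored highest for the PT list but stayed unnamed and was left out.

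In podocyte-like cells both chains stayed inside 2-fold. These 96 control and 64 ischemic cells, the population with the highest Col4a3 level in both libraries, had 1494 and 1630 CPM of Col4a3 and 911 and 985 CPM of Col4a4. Their ratios were 1.09 (0.987 to 1.21) and 1.08 (0.949 to 1.23). In EC-like cells Col4a3 was at 74.1 and 36.7 CPM, a ratio of 0.495 that stayed past 2-fold in 5 of 10 alternatives (0.488 to 0.605), and Col4a4 at 58.7 and 25.2 CPM. PT markers in EC-like cells were also lower, at 2736 and 1070 CPM, but so were they in PT-like cells, at 12101 and 6250 CPM. EC sub-clusters of 267 cells, led by Slc5a12, and of 243 cells, led by Fabp3, scored highest for the PT list and stayed unnamed. The part of tubule RNA in the EC-like values was not tested. Col4a3 was in macrophage-like cells at 36.8 and 9.13 CPM, a ratio of 0.248 (0.155 to 0.337 over the alternatives). Macrophage-like Col4a4 was at 38.4 and 14.7 CPM and Lamb1 at 13.9 and 6.15 CPM, a ratio of 0.441 that was 0.775 without the highest doublet scores and stayed past 2-fold in 6 of 10 alternatives. These 3 values were lower along with the PT markers there, at 2069 and 957 CPM. The same list was lower in PT-like cells too, at 12101 and 6250 CPM. The part of free tubule RNA in the 3 values was not tested.

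**Figure D4:**
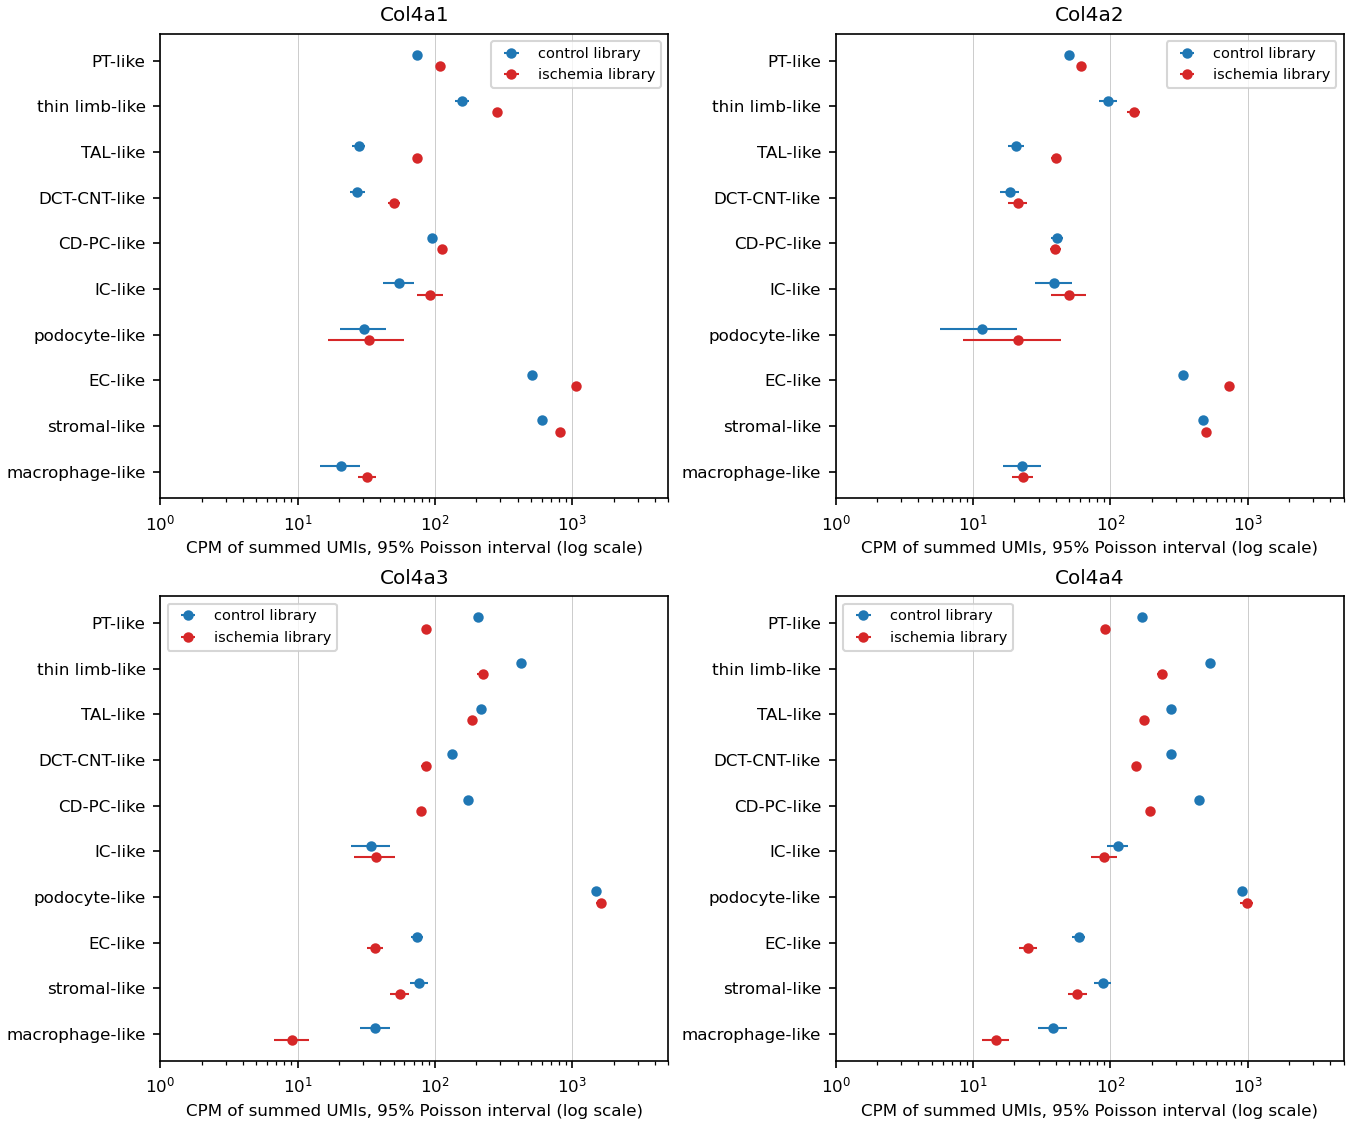
CPM (log axis) of Col4a1, Col4a2, Col4a3 and Col4a4 in 10 populations of the control (blue) and ischemic (red) library, with exact 95% Poisson intervals. Col4a1 and Col4a2 lie to the right in the ischemic EC-like cells, Col4a3 and Col4a4 to the left in PT-like and CD-PC-like cells, and podocyte-like points of Col4a3 and Col4a4 nearly coincide.

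Collagen VI, the beaded microfibril collagen, was almost confined to stromal-like cells, which held 92.3% of its UMIs in the control and 87.8% in the ischemic library. No chain passed 2-fold there: Col6a1 was at 31.6 and 47.3 CPM, Col6a2 at 23.5 and 32.9 CPM and Col6a3 at 63.1 and 114 CPM. In fibroblast-like cells Col6a3 alone of the chains passed it, at 130 and 411 CPM. Col15a1, a basement membrane collagen of capillaries and muscle, was highest in EC-like cells at 57.7 and 91.8 CPM. It was higher by ratio in stromal-like cells, at 30.2 and 72.6 CPM (2.41, with 2.33 to 4.65 over the alternatives), and in fibroblast-like cells, at 73.6 and 362 CPM (4.92). CD-PC-like cells had 17 and 46 Col15a1 UMIs, 1.82 and 4.23 CPM. Col14a1, a fibril-associated collagen, was at 88.6 and 46.4 CPM in macrophage-like cells and at 62.2 and 54.6 CPM in stromal-like cells.

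Col18a1, the source of endostatin, was read in many tubule populations. PT-like cells had 29.9 and 81.9 CPM, a ratio of 2.74 (2.61 to 2.88), with a ratio between 2.59 and 2.77 in each of the 3 PT-like clusters. TAL-like cells had 73.1 and 150 CPM, a ratio of 2.05 that went down to 1.89 over the alternatives, and DCT-CNT-like cells 84.9 and 177 CPM. CD-PC-like cells had 242 and 193 CPM, IC-like cells 257 and 320 CPM, and stromal-like cells 232 and 343 CPM, all inside 2-fold. Over the alternative settings the DCT-CNT-like ratio of 2.09 ranged from 1.60 to 2.58.

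Laminins and nidogens, the cross-shaped proteins of basement membranes and their linkers, mostly stayed inside 2-fold. Lama5 was highest in podocyte-like cells at 57.9 and 99.4 CPM. Lamb1 was at 188 and 164 CPM in TAL-like cells and at 139 and 186 CPM in DCT-CNT-like cells. Lamb2, the chain of the glomerular filter, was at 99.0 and 121 CPM in podocyte-like cells. Lamc1, shared by most laminins, was at 78.1 and 102 CPM in EC-like cells and passed 2-fold only in TAL-like cells, at 20.4 and 41.4 CPM (2.03, with 1.86 to 2.09 over the alternatives).

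The nidogens differed by population. Nid1 was at 158 and 111 CPM in stromal-like cells and at 77.7 and 111 CPM in EC-like cells. In PT-like cells it was scarce, with 25 and 104 UMIs, 0.349 and 1.53 CPM, a ratio of 4.39. It was 1.66 without integration, where the Havcr1-led cluster was not named PT-like. Nid2 was highest in thin limb-like cells, at 72.0 and 32.7 CPM, a ratio of 0.455 (0.339 to 0.606) that was 0.774 with each cell counted equally.

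Fn1, the fibronectin that cells lay down as a provisional matrix, had its widest difference in macrophage-like cells. The 290 control cells had 36 UMIs, 20.1 CPM, and the 577 ischemic cells 3186 UMIs, 593 CPM, a ratio of 29.6 (21.3 to 42.3). Fn1 was seen in 7 of the 290 control cells and 212 of the 577 ischemic cells. With each cell thinned to 1000 UMIs, leaving out 7 and 11 shallower cells, the shares were 0.707% and 21.4%, and in PT-like cells they were 0.0532% and 0.11%. The 5 cells with most UMIs held 15.8% of the ischemic total, so the level was spread over many cells. The ischemic macrophage-like cells were thus the highest population for Fn1, while stromal-like cells led in the control library at 62.2 CPM and had 121 CPM in the ischemic one. PT-like cells had 19 and 65 Fn1 UMIs. PMN markers in macrophage-like cells summed to 28.4 CPM with 4 of 8 detected in the control and to 249 CPM with 6 of 8 in the ischemic library. Stromal markers summed to 55.2 CPM with 12 of 20 and to 38.9 CPM with 14 of 20, and dendritic cell markers to 468 and 238 CPM. Macrophage-like cells made up 2.30% of control and 4.40% of ischemic cells. Their marker list holds both C1qa and Ccr2, and the population was not split further. The part of these lists and of a different mix of cells was not tested.

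Tnc, tenascin C, a matricellular protein of wound edges, was almost absent outside stromal-like cells. Stromal-like cells had 104 and 810 UMIs, 49.0 and 293 CPM, a ratio of 5.97 (4.87 to 7.40). In fibroblast-like cells 2 UMIs in 1 control cell stood against 533 UMIs in 29 ischemic cells, 6.69 and 1141 CPM, a ratio of 171 with an interval of 47.0 to 1412. After thinning, 22 of 83 ischemic fibroblast-like cells and 0 of 61 control cells had a Tnc UMI, which allows a control share of cells with a UMI at that depth of up to 4.92%. In the ischemic cells 5 of them held 63.0% of the UMIs. The stromal-like ratio ran to 13.1 under other clusterings, so its size depended on which cells were named stromal-like.

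The 250 bases before the Tnc start in RefSeq (GRCm38.p6, chr4:64047016-64047265, minus strand) are shown because Tnc had the widest fibroblast-like difference. They overlap no GENCODE exon and lie within the antisense gene 8030451A03Rik. Capitals would mark any match, on either strand, to TGANTCA (AP-1), ACGTG (the HIF core), TTCNNNGAA (STAT) or CCAAT, and there is none:
Tnc: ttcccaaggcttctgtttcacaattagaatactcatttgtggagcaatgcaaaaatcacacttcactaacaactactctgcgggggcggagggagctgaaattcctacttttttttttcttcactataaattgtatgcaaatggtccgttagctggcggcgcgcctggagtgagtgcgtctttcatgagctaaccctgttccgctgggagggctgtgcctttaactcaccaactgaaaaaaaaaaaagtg

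Sparc, osteonectin, a collagen-binding glycoprotein, was high in podocyte-like cells at 2768 and 2727 CPM. EC-like cells had 951 and 1828 CPM, a ratio of 1.92, and the peritubular sub-cluster 853 and 1968 CPM, a ratio of 2.31. Stromal-like cells had 1050 and 1040 CPM. In PT-like cells it was at 27.7 and 84.3 CPM, a ratio of 3.04 (2.89 to 3.20), with 44.7 and 140 CPM in the PT-like cluster where it was highest and 3.22 and 3.75 CPM in the one where it was lowest. Small amounts in TAL-like cells, 24 and 157 UMIs, gave a ratio of 5.38 that was 1.44 among cells with at most 25% mitochondrial UMIs. CD-PC-like cells had 24 and 67 UMIs, a ratio of 2.40 (1.22 to 2.98 over the alternatives), and thin limb-like cells 11 and 54 UMIs, a ratio of 3.42 that turned to 0.692 without integration. Postn, periostin, had 26 and 105 UMIs in stromal-like cells, 12.2 and 37.9 CPM, with 62.9% of the ischemic UMIs in 5 cells.

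The 3 members past 2-fold lower in stromal-like cells were Dcn, Eln and Mmp2, which belong to different groups. Dcn, decorin, which binds collagen fibrils, was at 583 and 220 CPM there, a ratio of 0.378 (0.342 to 0.416), and at 4125 and 1298 CPM in fibroblast-like cells (0.315). A Dcn UMI was seen in 33 of 63 control and 24 of 92 ischemic fibroblast-like cells, and after thinning the shares were 42.6% and 18.1%. Bgn, biglycan, was at 411 and 461 CPM and Lum, lumican, at 28.3 and 27.8 CPM in stromal-like cells, both inside 2-fold. Of the 3 proteoglycans, Dcn alone passed 2-fold there. It was also lower in IC-like cells, with 70 and 8 UMIs, and in CD-PC-like cells, with 59 and 20 UMIs, 6.32 and 1.84 CPM. Over the alternatives the IC-like ratio of 0.134 ranged from 0.116 to 0.251 and the CD-PC-like ratio of 0.291 from 0.102 to 0.304.

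Eln, elastin, was at 173 and 80.6 CPM in stromal-like cells, a ratio of 0.465 (0.392 to 0.550) that was 0.864 among cells with at most 25% mitochondrial UMIs. The lower level sat in VSMC-like cells, at 644 and 211 CPM, while fibroblast-like cells had 110 and 109 CPM. EC-like cells had 75.3 and 72.8 CPM. Fbn1, fibrillin, was at 79.1 and 99.7 CPM in stromal-like cells and Lox, the collagen and elastin cross-linker, at 21.7 and 37.9 CPM, both inside 2-fold.

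Timp1, an inhibitor of metalloproteinases, was higher in the ischemic library in each of the 8 populations of 30 cells or more per library in which it had 50 UMIs. In stromal-like cells it was at 29.7 and 348 CPM, a ratio of 11.7 (9.09 to 15.4), and in fibroblast-like cells at 174 and 1829 CPM. EC-like cells had 7.61 and 73.1 CPM, a ratio of 9.61 (6.90 to 13.7) that ranged from 5.43 to 11.6 over the alternatives. An EC sub-cluster led by Aqp1, Hpgd and Slc14a1 was at 16.8 and 217 CPM and held most of the EC-like Timp1 UMIs of the ischemic library. Peritubular EC-like cells had 2 and 49 UMIs.

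Tubule populations carried almost no Timp1 in the control library. TAL-like cells had 9 and 1262 UMIs, 0.858 and 98.9 CPM, a ratio of 115 (60.6 to 253) that ranged from 57.6 to 176 over the alternatives. The UMIs came from 208 of 494 ischemic cells, against 8 of 506 control cells. After thinning, 7.52% of ischemic TAL-like cells and none of 504 control cells had a UMI. The same approximate limit, with 3 cells in place of 0, is a control share of 0.595% at that depth. DCT-CNT-like cells had 0 and 358 UMIs, a ratio of 143 against a floor of 3 counts in the control library, but 5 cells held 81.6% of them and the value ranged from 35.2 to 172 over the alternatives. CD-PC-like cells had 0 and 143 UMIs, a ratio of 40.9 by the same floor, with 14.6 to 41.3 over the alternatives. Thin limb-like cells had 1 and 164 UMIs, a ratio of 114 with an interval of 20.2 to 4536 and a range of 73.5 to 317 over the alternatives. PT-like cells were the lowest, with 7 and 211 UMIs, 0.0977 and 3.11 CPM, a ratio of 31.8 (15.2 to 80.1) that ranged from 13.2 to 76.1 over the alternatives.

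Macrophage-like cells had 1 and 187 Timp1 UMIs, a ratio of 62.5 with an interval of 11.1 to 2482 and a range of 15.8 to 82.3 over the alternatives. Podocyte-like cells had 14 and 5 UMIs, 14.7 and 15.1 CPM. B cell-like cells had 0 and 1 UMI in 40 and 48 cells, and whether they make the gene is not known from these data. In the ischemic library this is 3.52 CPM, with an interval of 0.0891 to 19.6 that holds the PT-like level of 3.11 CPM. A level resting on 1 UMI cannot tell whether the PT-like level lies above that of B cell-like cells. The part of free RNA in the PT-like level was not tested. Havcr1, the tubule injury marker, had 513 UMIs in control and 28352 UMIs in ischemic PT-like cells.

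**Figure D5:**
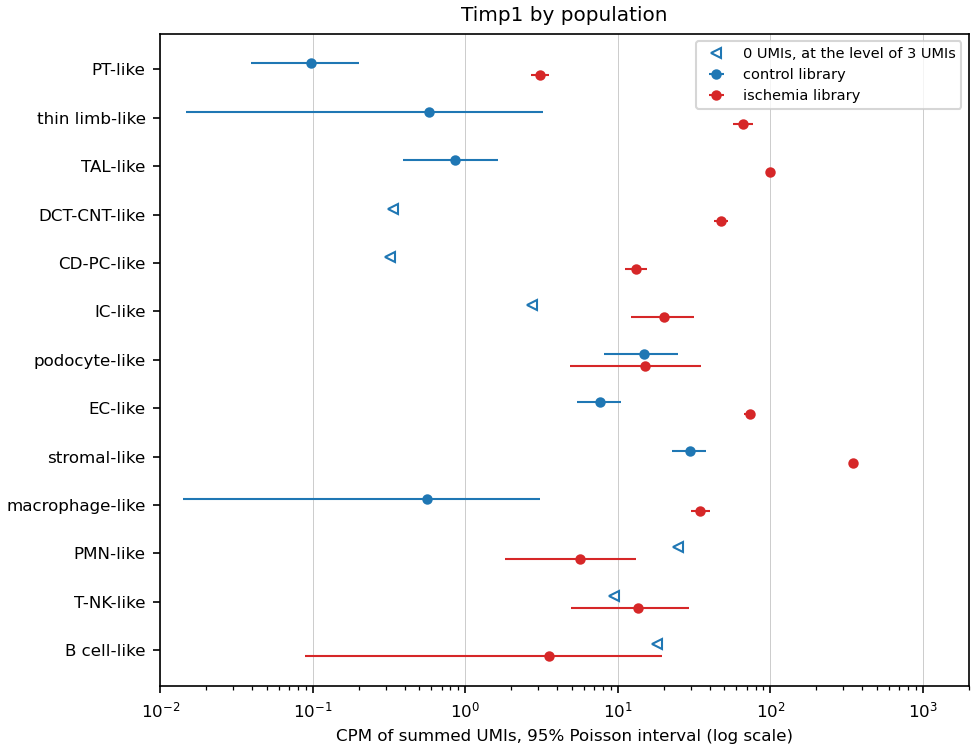
CPM (log axis) of Timp1 in 13 populations of the control (blue) and ischemic (red) library with exact 95% Poisson intervals; open triangles mark 0 UMIs, drawn at the level of 3 UMIs. The 8 compared populations have ratios of 9.61 or more, and the points overlap in podocyte-like cells.

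The Timp1 gene lies on the X chromosome (chrX:20870166-20874735, GRCm38, plus strand). The 250 bases before its start (RefSeq, GRCm38.p6, chrX:20869916-20870165) overlap no exon and lie inside Syn1, which is read from the other strand. They are printed because Timp1 differed in most populations, with matches to the same 4 motifs in capitals:
Timp1: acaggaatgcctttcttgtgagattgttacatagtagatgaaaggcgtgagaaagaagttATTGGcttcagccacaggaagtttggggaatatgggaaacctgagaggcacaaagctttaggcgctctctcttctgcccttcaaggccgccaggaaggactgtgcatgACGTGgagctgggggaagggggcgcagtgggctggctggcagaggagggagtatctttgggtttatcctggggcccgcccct
The window holds a CCAAT match read on the opposite strand, starting 190 bases before the start, and an ACGTG match starting 82 bases before it. Among 32851 RefSeq promoters of this length, CCAAT was found in 33.8%, ACGTG in 16.6%, TTCNNNGAA in 7.02% and TGANTCA in 6.75%. A promoter was listed for 25 of the 39 genes, of which 10 held CCAAT, 5 ACGTG, 1 TTCNNNGAA and 2 TGANTCA. A match is a description of letters only.

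Among named populations with 50 UMIs or more, the other TIMPs passed 2-fold in thin limb-like cells only, where both were lower. With 11 and 27 UMIs, Timp2 in TAL-like cells was at 1.05 and 2.12 CPM. PT-like cells held 69.1% of the UMIs of the 3 TIMPs in the control and 66.7% in the ischemic library, nearly all of them Timp3, the matrix-bound inhibitor, which was there at 1225 and 1089 CPM. EC-like cells had 2562 and 1505 CPM, a ratio of 0.587, with 5429 and 1985 CPM in the sub-cluster led by Aqp1 (0.366). Thin limb-like cells had 1357 and 371 CPM, a ratio of 0.274 (0.253 to 0.295) that was 0.555 under a gate on marker UMIs. DCT-CNT-like cells had 348 and 506 CPM and IC-like cells 153 and 272 CPM. Podocyte-like cells had 1488 and 1516 CPM. B cell-like cells had 37 and 110 Timp3 UMIs, 224 and 387 CPM, and the part of free RNA in these levels was not tested. Timp2, which also takes part in activating pro-MMP2, was highest in podocyte-like cells at 386 and 422 CPM, was at 342 and 238 CPM in stromal-like cells and at 177 and 82.4 CPM in thin limb-like cells (0.466, with 0.243 to 0.581 over the alternatives). Timp3, Timp2 and Nid2 were lower in thin limb-like cells while several marker lists moved there. The 7 thin limb markers, with 7 and 6 detected, summed to 13629 and 9441 CPM, PT markers to 969 and 275 CPM, macrophage markers to 116 and 16.2 CPM and urothelium markers to 268 and 0 CPM. Injured tubule markers were at 269 and 1310 CPM, and the part of these lists was not tested.

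The proteases were each read in few populations. Mmp2, gelatinase A, was at 30.2 and 11.2 CPM in stromal-like cells, with 64 and 31 UMIs, a ratio of 0.372 (0.112 to 0.372 over the alternatives). Mmp14, the membrane-type metalloproteinase that activates pro-MMP2, was at 54.2 and 69.4 CPM there. It was higher in TAL-like cells, at 6.67 and 20.0 CPM (interval of the ratio 2.29 to 3.96), in EC-like cells, at 12.2 and 26.0 CPM (a ratio of 2.13 that went down to 1.43 over the alternatives), and in fibroblast-like cells, at 80.3 and 184 CPM. Thin limb-like cells had 11 and 42 Mmp14 UMIs, a ratio of 2.66 that was 0.943 under the gate. Mmp9, gelatinase B, a granule enzyme of neutrophils, had 73 UMIs in 19 control and 642 UMIs in 191 ischemic PMN-like cells, 600 and 723 CPM. Over all kept cells it had 103 and 733 UMIs.

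Mmp7, matrilysin, had 14 UMIs over all control and 525 over all ischemic cells. In IC-like cells it had 1 UMI in 58 control cells and 347 UMIs in 46 ischemic cells, a ratio of 405 with an interval of 72.3 to 16050 that was 85.1 among cells with at most 25% mitochondrial UMIs. Only 10 ischemic cells had any, and 5 of them held 93.1%. TAL markers in IC-like cells summed to 626 CPM in control and 1504 CPM in ischemic cells, with 7 and 6 of 8 detected. Other lists rose there too: thin limb markers from 14.5 to 132 CPM, EC markers from 21.8 to 168 CPM and injured tubule markers from 10.9 to 73.2 CPM. Lower were CD-PC markers, at 317 and 180 CPM, and peritubular EC markers, at 543 and 191 CPM. The part of these lists was not tested. TAL-like cells had 12 and 44 Mmp7 UMIs, a ratio of 3.02 (2.77 to 14.6 over the alternatives). The 250 bases before the Mmp7 start (RefSeq, GRCm38.p6, chr9:7691840-7692089, plus strand) overlap no exon, lie within AV064505 on the other strand, and are shown because Mmp7 is 1 of the 2 members with an AP-1 match, starting 63 bases before the start. The same 4 motifs are in capitals:
Mmp7: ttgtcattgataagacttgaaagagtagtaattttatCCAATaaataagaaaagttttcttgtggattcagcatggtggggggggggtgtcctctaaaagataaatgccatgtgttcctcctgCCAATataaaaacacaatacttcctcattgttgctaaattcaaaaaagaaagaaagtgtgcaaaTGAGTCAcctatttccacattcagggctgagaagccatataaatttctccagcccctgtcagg

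Plau, urokinase, which turns plasminogen into plasmin, was highest in thin limb-like cells at 222 and 187 CPM. TAL-like cells had 173 and 114 CPM and PT-like cells 30.4 and 40.8 CPM. In DCT-CNT-like cells it had 28 and 370 UMIs, 3.12 and 49.4 CPM, a ratio of 15.8 (10.7 to 24.1) with 53.8% of the ischemic UMIs in 5 cells. That ratio was 1.96 under a gate on marker UMIs and 5.04 with each cell counted equally.

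Of 87 further matrix, matrix-cleaving and inhibitor genes, 13 of 41 were higher and 2 lower in TAL-like cells, 13 of 33 and 3 in macrophage-like cells, 13 of 56 and 2 in PT-like cells, 10 of 41 and 3 in CD-PC-like cells, 7 of 58 and 1 in EC-like cells and 7 of 70 and 6 in stromal-like cells. Over all genes compared, 7.79% were higher and 7.55% lower in TAL-like cells, 5.62% and 4.9% in macrophage-like and 6.85% and 3.85% in PT-like cells. In CD-PC-like cells these shares were 5.81% and 4.52%, in EC-like cells 1.93% and 3.33% and in stromal-like cells 1.92% and 2.52%. The list of 87 was also chosen with earlier results of these data known. The genes named next were past 4-fold with 100 UMIs, and the share of all genes past that limit was not taken, so populations are not ranked by it. In macrophage-like cells Vcan, versican, was at 2.79 and 135 CPM, Thbs1, thrombospondin, at 18.9 and 469 CPM and Ecm1 at 6.13 and 121 CPM. Mmp19 was at 1.11 and 33.9 CPM there, Plaur, the urokinase receptor, at 30.1 and 149 CPM and Tgm2, a transglutaminase, at 29.5 and 141 CPM. Mmp12, macrophage elastase, was lower, at 223 and 41.5 CPM, as was Mmp13, a collagenase, at 65.2 and 14.3 CPM.

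In TAL-like cells Adamts1 was at 24.0 and 271 CPM, Ctsl, a lysosomal protease, at 148 and 962 CPM, Plaur at 42 and 286 UMIs and Tgm2 at 11.6 and 61.3 CPM. PT-like cells had Plaur at 0.824 and 18.8 CPM, Adamts1 at 13.9 and 62.5 CPM, and Mep1b, a brush-border metalloprotease, lower at 5.07 and 0.943 CPM. EC-like cells had Adamts4 at 6.81 and 38.5 CPM. In stromal-like cells Mmp3, stromelysin, was at 8.01 and 69.4 CPM, Vcan at 10.4 and 45.2 CPM, Thbs1 at 37.2 and 153 CPM and Loxl2, a cross-linking enzyme, at 11.8 and 47.7 CPM, while Mfap5, a microfibril protein, was lower at 121 and 22.8 CPM.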

How the data were processed

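The authors deposited raw UMI counts per gene and barcode for 1 control and 1 ischemic kidney library. Per the labels they were made with Cell Ranger 7.0.0 on mm10. Whether intronic reads were counted is not given in the sources used here. Cells were kept when 200 or more genes were detected, UMIs lay between 500 and 150000, and mitochondrial UMIs made up no more than 55%. They were clustered in Seurat 5.3.0 (R 4.3.3) after anchor integration of the libraries on 2000 variable genes, with the 39 members left out, 30 components and resolution 0.3, and stromal-like and EC-like cells were clustered again with 15 components.

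A cluster was named from marker lists without the members when at least 3 markers of the list were detected and at least 1 stood among its 10 leading genes, ahead of any other list. A doublet caller (Scrublet, in scanpy 1.11.5) marked no cell in either library and so removed none, and the reason was not examined. An alternative without the 8% of cells with the highest scores per library was added after seeing the data. UMIs were summed per library and population (scipy 1.17.1), given as CPM, and compared as ratios with exact 95% conditional binomial intervals. Against 0 UMIs the ratio was taken with 3 counts in place of 0, and the exact lower limit of such a ratio can be lower. The ratio step was checked on simulated counts. Shares of positive cells were also taken after thinning to 1000 UMIs. Where no cell was positive, the upper limit given is 3 cells over the cells used, an approximation that an exact interval can exceed. Promoter sequences are from RefSeq.

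The members and gene lists were chosen with earlier results of these data known. Each member is given in the population where it was highest and in every named population, of 30 cells or more in each library, where it passed 2-fold with 50 UMIs, and other matrix genes are named past 4-fold with 100 UMIs. Some of the latter are not reported here. Other filters, clusterings, gates and scalings were tried.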

Additional observations from a re-analysis of the deposited data

Results flagged for a closer look

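Col5a2 was past 2-fold in opposite directions, with ratios of 2.11 in EC-like and 2.33 in stromal-like cells and of 0.352 in PT-like and 0.43 in TAL-like cells. The difference was not tested, since each condition has 1 library.

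Members past 2-fold were also seen in the clusters that stayed unnamed and that the comparisons do not use. In the shallow cluster the ratios were 4.07 for Col1a2, 3.88 for Col3a1, 2.21 for Col18a1, 3.63 for Fn1, 2.44 for Sparc and 37.6 for Timp1, and 0.422 for Col4a3 and 0.455 for Col4a4. In the other unnamed cluster they were 2.03 for Col4a1 and 59.4 for Timp1, and 0.320 for Col5a2 and 0.454 for Col4a3.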

How the results depend on the processing

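The 56 ratios past 2-fold were recomputed under 10 alternatives where the population could be formed, 546 values in all. Of these 543 kept their direction and 497 stayed past 2-fold. These totals include alternatives that could hardly differ. Dividing by the median ratio, or leaving mitochondrial UMIs out of the denominator, scales all ratios of a population by 1 factor near 1. Neither could turn a ratio past 2-fold. At 1000 UMIs per cell all 56 ratios stayed inside their counting interval. Those that turned were Sparc in thin limb-like cells, at 0.692 without integration and 0.956 under a gate on marker UMIs, and Mmp14 there, at 0.943 under the gate; the cause was not tested. Counts of members past 2-fold moved by over 1.5 times as follows. At 200 UMIs per gene fewer genes are compared, which gave 4 in place of 7 in PT-like, 2 in place of 6 in CD-PC-like and 1 in place of 5 in macrophage-like cells. With each cell counted equally there were 3 in place of 7 in EC-like and 7 in place of 11 in stromal-like cells. Without the highest doublet scores EC-like cells had 4, without integration PT-like cells had 2, and at 25% mitochondrial UMIs TAL-like cells had 5 in place of 8. Without integration a cluster led by Fgb and Havcr1, with 1277 ischemic cells, was not named PT-like, and no TAL-like or CD-PC-like count was possible. The stromal-like share of fibrillar collagen UMIs was 62.2% in the control and 81% in the ischemic library at 25% mitochondrial UMIs, 37.1% and 61.8% under the gate, 38.8% in the control at resolution 0.6 and 78.8% in the ischemic library at 1000 UMIs per cell. The planned doublet alternative was not run, since no cell was marked. No paired analysis was possible because each condition has 1 library. Low counts limit genes under 50 UMIs.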
